A study of Mus musculus with 24 samples.

Results

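Heat shock proteins of the HSP70 and HSP90 families, with the transcription factor HSF2, were followed from mitotic germ cells into meiosis in the mouse testis. The members were the 10 genes whose rows carry exactly the symbols Hspa2, Hspa1l, Hspa4l, Hspa1a, Hspa1b, Hspa8, Hspa5, Hsp90aa1, Hsp90ab1 and Hsf2, of 52323 rows in the total RNA table and as many in the nascent RNA table. All 10 had at least 1 FPKM (fragments mapped to a transcript, scaled to its length and to the size of the library) in at least 2 libraries of each assay and were tested.

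The cells came from wild-type NMRI mice whose spermatogenesis had been synchronised: WIN18,446, which blocks the synthesis of retinoic acid, held it back until retinoic acid was given. At 24 days post partum (dpp) all mice received 2 mg of 5-ethynyl uridine (EU), a nucleoside that marks newly made RNA, for 3 hours before germ cells were sorted by DNA content. Each assay comprised 3 spermatogonia libraries from 2 animals, 1 preleptotene library, 4 leptotene libraries from 3 animals and 4 pachytene libraries from 2 animals. By the labels, total RNA and EU-captured (nascent) RNA came from different animals, numbered 1 to 4 and 5 to 8. Several animals gave more than 1 stage. Across stages and library numbers, animals 1, 2, 3 and 4 hold the places that animals 5, 6, 7 and 8 hold in nascent RNA. Whether same-numbered libraries of the 2 assays share cells was not tested. There was no group without the inhibitor, retinoic acid or EU, so all stages share that treatment. Tests used the mean of each animal, and a single preleptotene library allowed no test of that stage.

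HSP70 proteins bind unfolded stretches of other proteins in a cycle driven by ATP, with J-domain proteins (HSP40s) delivering clients and exchange factors releasing ADP. HSP90 proteins act later, on clients that are close to their native fold. In mouse male germ cells, HSPA2 is the HSP70 form known to be needed for meiosis I, where it acts on the synaptonemal complex and on the CDK1 and cyclin B1 kinase, and males without it arrest in meiosis and are sterile.

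One library stood furthest from its label in both assays. Over all tested genes, leptotene library 2 had a Spearman correlation of 0.874 to 0.904 with the pachytene total RNA libraries and 0.528 to 0.569 with the other leptotene ones. In nascent RNA the same-numbered library correlated at 0.754 to 0.860 with pachytene and 0.594 to 0.625 with leptotene. Calls of the 10 genes that changed without leptotene library 2 are given both ways. Leptotene library 3 lay near spermatogonia as well. Its nascent RNA correlated at 0.766, 0.772 and 0.862 with spermatogonia libraries 1, 2 and 3, and at 0.773 and 0.779 with leptotene libraries 1 and 4. For total RNA the values were 0.782, 0.739 and 0.853, and 0.841 and 0.846. The spermatogonia libraries also held somatic transcripts: the summed level of 12 Sertoli cell markers was 173 to 241 FPKM in total RNA there, against 18.2 to 53.2 in leptotene and 9.8 to 13.4 in pachytene. In bulk RNA, fewer cells of a type and less RNA per cell cannot be told apart.

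From leptotene to pachytene the testis gene Hspa2 became one of the most abundant transcripts of the cells, joined by Hsp90aa1. Over the same stages the stress-induced pair Hspa1a and Hspa1b fell, as did, on the deposited FPKM scale, the constitutive Hspa8 and Hspa5. The pair had already fallen between spermatogonia and leptotene, where no other member of the 10 passed the test in total RNA. Hsp90ab1 did not pass the test at this step. Hspa1l, although named as a testis form, was at or below 1.60 FPKM in all 24 libraries.

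**Figure D1:**
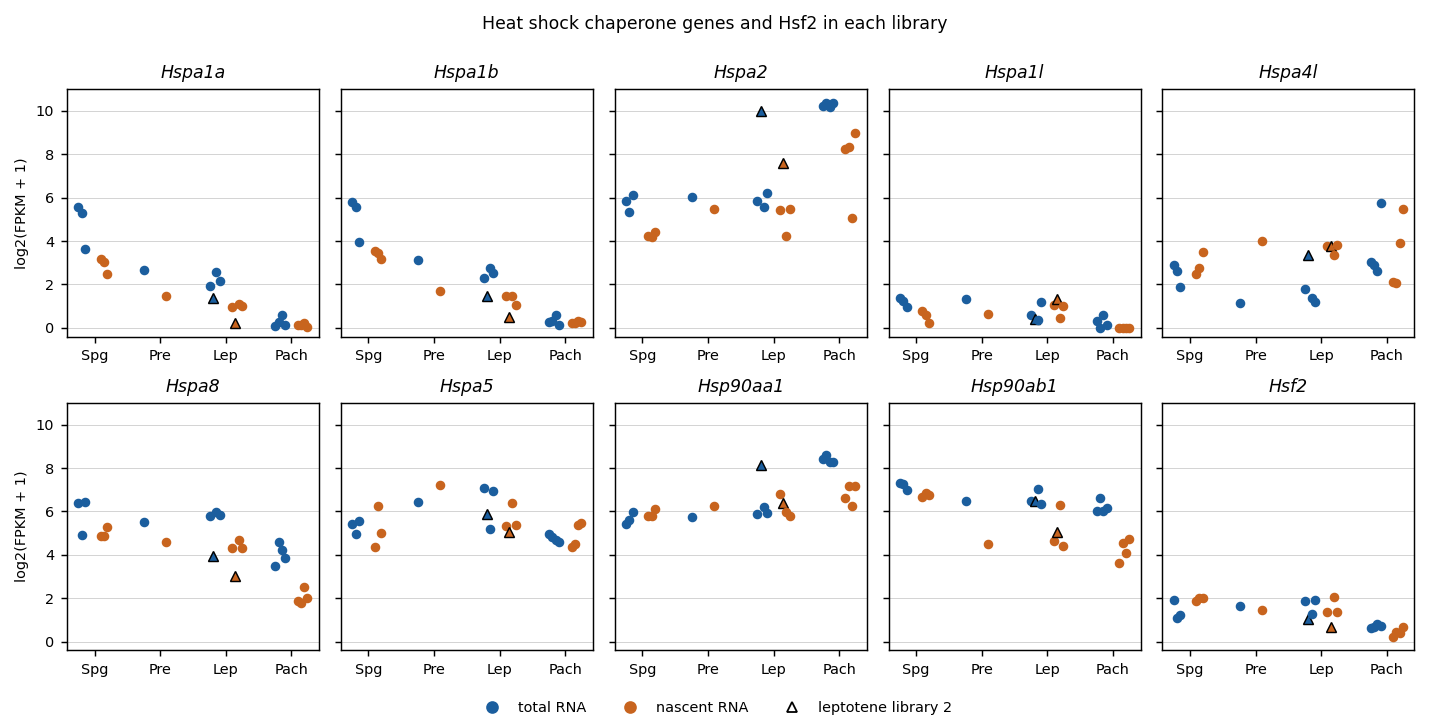
FPKM of the 10 genes on a log2(FPKM + 1) axis in each library by stage, with total RNA in blue, nascent RNA in orange and leptotene library 2 as a triangle. Hspa2 lies at 1158 FPKM or more in all 4 pachytene total RNA libraries, and the triangle of leptotene library 2 lies beside the pachytene points for Hspa2 and Hsp90aa1.

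Hspa2 is on chromosome 12 (chr12:76404176-76406938, plus strand, mm10). In total RNA it was at 55.6, 38.8 and 67.8 FPKM in the spermatogonia libraries and at 63.6 FPKM in preleptotene. In leptotene it was at 57.1, 1010, 46.1 and 72.1 FPKM, and in pachytene at 1198, 1331, 1158 and 1323 FPKM. All 4 pachytene libraries lay above every other library, and leptotene library 2 was the only earlier one above 100 FPKM. Among all rows of the table, Hspa2 ranked 13th to 15th by FPKM in pachytene and between 133rd and 396th in spermatogonia.

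The rise of Hspa2 from leptotene to pachytene was 3.73 ± 0.62 on the log2(FPKM + 1) scale (SE, limma adjusted p = 0.00351). Without leptotene library 2 it was 4.42 (limma adjusted p = 4.35e-05), and from spermatogonia to pachytene it was 4.45 ± 0.68 (limma adjusted p = 0.0013). From spermatogonia to leptotene the change was 0.72 ± 0.62 and did not pass the test (limma adjusted p = 0.565), and without leptotene library 2 it was 0.03. The call from leptotene to pachytene ended without leptotene library 1, which leaves library 2 alone to stand for its animal (3.05, limma adjusted p = 0.191). In that fit 9 genes passed, against 7742 with all libraries.

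Nascent Hspa2 was at 18.0, 16.9 and 20.1 FPKM in spermatogonia, 43.5 in preleptotene, 42.3, 193, 17.8 and 43.3 in leptotene, and 306, 318, 32.1 and 496 in pachytene. Pachytene library 3 lay among the leptotene libraries, while the other 3 exceeded all earlier ones. The rise from leptotene to pachytene was 2.24 ± 0.72 (limma adjusted p = 0.038), 2.60 without leptotene library 2 (limma adjusted p = 0.015) and 4.404 with the animal as a block (limma adjusted p = 0.00335). The call ended without spermatogonia library 3, leptotene library 1, 3 or 4, pachytene library 1 or pachytene animal 8, with limma adjusted p between 0.055 and 0.337. From spermatogonia to pachytene the rise was 3.34 ± 0.79 (limma adjusted p = 0.00608). That call ended without spermatogonia library 3, pachytene library 1 or pachytene animal 8, with limma adjusted p between 0.053 and 0.078. The deposited nascent table corrected with 5S ribosomal RNA is in units of signal and not FPKM. It held Hspa2 at 18.9 to 70.4 in spermatogonia, 24.9 and 19.1 in leptotene libraries 1 and 4, and 538, 1619 and 1127 in pachytene libraries 1, 2 and 4.

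Hspa4l encodes a member of the HSP110 branch, which acts as an exchange factor for HSP70 and is abundant in testis. The gene is on chromosome 3 (chr3:40744495-40796103, plus strand). Its total RNA was at 6.34, 5.07 and 2.66 FPKM in spermatogonia, 1.20 in preleptotene, 2.41, 9.10, 1.62 and 1.30 in leptotene, and 7.14, 6.45, 5.15 and 52.9 in pachytene. Pachytene library 4 stood far above the other pachytene libraries, and leptotene library 2 exceeded the other 3 pachytene libraries. The increase from leptotene to pachytene passed the test at 1.86 ± 0.57 (limma adjusted p = 0.029) but not without pachytene library 4 (1.14, limma adjusted p = 0.079). The call also ended without pachytene animal 4, spermatogonia library 3, or leptotene library 1, 3 or 4, with limma adjusted p between 0.054 and 0.251. Without leptotene library 2 the increase was 2.12 (limma adjusted p = 0.00842). Against spermatogonia the increase was 1.27 ± 0.62 (limma adjusted p = 0.115), but 2.51 with the animal as a block (limma adjusted p = 0.049), 1.87 with spike-in scaling (limma adjusted p = 0.017) and 2.02 without pachytene animal 2 (limma adjusted p = 0.050, just under the threshold). Nascent Hspa4l was at 4.59 to 10.3 FPKM in spermatogonia, 9.34 to 13.0 in leptotene and 3.25 to 43.2 in pachytene, with overlapping ranges and no change that passed the test.

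Hspa1l, known in mouse for its expression in spermatids, is on chromosome 17 beside Hspa1a (chr17:34972703-34979285, plus strand). It was at 0.94 to 1.60 FPKM in spermatogonia, 1.502 in preleptotene, 0.28 to 1.30 in leptotene and 0 to 0.49 in pachytene total RNA. It was at 0 in all 4 nascent pachytene libraries, against 0.35 to 1.53 FPKM in leptotene. In total RNA the decrease from spermatogonia to pachytene was −0.88 ± 0.32 (limma adjusted p = 0.046). It ended with the animal as a block (−0.57, limma adjusted p = 0.479), with spike-in scaling (limma adjusted p = 0.063), with libraries rescaled to the same total (limma adjusted p = 0.055) and when any of spermatogonia library 1 or 3, leptotene library 1, pachytene library 1 or 2, or 1 of 4 single animals was left out, with limma adjusted p between 0.052 and 0.248. In nascent RNA Hspa1l passed the level filter only through leptotene libraries 1 and 2, so its decrease of −0.88 ± 0.27 from leptotene to pachytene (limma adjusted p = 0.033) was partly set by the filter. Without either of these it fell under the filter and was not tested, and the call ended without leptotene library 4, pachytene animal 6 or pachytene animal 8, in the 5S-corrected table (−0.58, limma adjusted p = 0.322) and with the block (−0.44, limma adjusted p = 0.574).

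Hspa1a and Hspa1b encode nearly the same protein, the HSP70 form whose transcription rises under heat and other stress. They lie on the minus strand of chromosome 17 (chr17:34969190-34972156 and chr17:34956436-34959238), and the start of Hspa1a is 547 bases from that of Hspa1l. Of the 50-base windows of Hspa1a transcripts, 58.8% also occur in Hspa1b, so the split of reads between the pair is uncertain and their sum is also given. The upstream sequences are shown because the pair moved together; they are the 250 bases before each start, from RefSeq on GRCm38.p6, written 5′ to 3′ on the minus strand (chr17:34972157-34972406 and chr17:34959239-34959488). Capitals mark a match to the heat shock element letters GAANNTTC and, nearer the start, a CCAAT box read on the other strand.

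Hspa1a: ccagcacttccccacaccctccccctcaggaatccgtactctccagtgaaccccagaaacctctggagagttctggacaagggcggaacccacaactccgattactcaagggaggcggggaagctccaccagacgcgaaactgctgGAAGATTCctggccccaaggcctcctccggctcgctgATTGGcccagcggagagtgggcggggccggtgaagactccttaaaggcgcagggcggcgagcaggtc

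Hspa1b: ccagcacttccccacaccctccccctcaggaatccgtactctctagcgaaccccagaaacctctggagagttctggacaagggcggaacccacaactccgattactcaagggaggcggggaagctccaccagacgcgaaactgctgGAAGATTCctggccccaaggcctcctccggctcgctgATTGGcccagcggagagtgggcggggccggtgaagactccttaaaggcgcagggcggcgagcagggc

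The pair of sequences differed at 3 of 250 bases, none of them in the capitals. Both motifs sat at the same place in each, GAANNTTC 104 to 97 bases and the CCAAT box 67 to 63 bases before the start. RefSeq promoter windows were found for 7 of the 10 members, and GAANNTTC on either strand occurred in 2 of these and in 6.78% of 27025 mouse promoters of that length. The other heat shock arrangement, TTCNNGAA, occurred in 0 of the 7 and in 7.1% of all. A CCAAT box on either strand occurred in 6 of the 7 and in 34.5% of all. A match is a description of letters and not a site shown to be bound.

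In total RNA Hspa1a was at 46.1, 37.9 and 11.4 FPKM in spermatogonia and at 5.39 in preleptotene. It was at 2.86, 1.63, 5.04 and 3.49 in leptotene and at 0.06, 0.21, 0.53 and 0.09 in pachytene. Hspa1b followed at 54.3, 46.8 and 14.5, then 7.84, then 3.90, 1.77, 5.69 and 4.70, then 0.20, 0.26, 0.50 and 0.10 FPKM. The 3 stages with several libraries did not overlap for either gene, and spermatogonia library 3, from another animal than libraries 1 and 2, was the lowest of its group. In pachytene these levels correspond to an estimated 2.0 to 24.6 reads of Hspa1a per library, where counting noise is large.

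Hspa1a decreased by −2.38 ± 0.52 from spermatogonia to leptotene (limma adjusted p = 0.020) and by −1.87 ± 0.52 from leptotene to pachytene (limma adjusted p = 0.020). The values for Hspa1b were −2.44 ± 0.51 (limma adjusted p = 0.017) and −2.05 ± 0.51 (limma adjusted p = 0.013). From spermatogonia to pachytene the decreases were −4.25 ± 0.57 and −4.49 ± 0.56 (limma adjusted p = 0.00105 and 0.000934), and these passed with each library and each animal left out in turn. Without leptotene library 2 the first step was −2.29 and −2.30 (limma adjusted p = 0.027 and 0.022) and the second −1.96 and −2.18 (limma adjusted p = 0.014 and 0.00696). The first step did not pass for either gene without spermatogonia animal 3, leptotene animal 1 or leptotene library 1 or 4, with limma adjusted p between 0.051 and 0.271. Without that spermatogonia animal the decrease was −1.49 for Hspa1a and −1.58 for Hspa1b. The second step did not pass for either gene without leptotene library 1 or either pachytene animal, nor for Hspa1a without leptotene library 3 or 4, with limma adjusted p between 0.054 and 0.187.

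Nascent RNA of the pair showed the same order of stages. Nascent Hspa1a was at 8.00, 7.19 and 4.62 FPKM in spermatogonia, 1.73 in preleptotene, 0.16 to 1.16 in leptotene and 0.03 to 0.15 in pachytene. Nascent Hspa1b was at 10.7, 9.75 and 7.94, then 2.27, then 0.43 to 1.76, then 0.15 to 0.26 FPKM. Spermatogonia and leptotene libraries did not overlap. The decrease from spermatogonia to leptotene was −1.89 ± 0.34 for Hspa1a (limma adjusted p = 0.00491) and −2.15 ± 0.35 for Hspa1b (limma adjusted p = 0.00248), and it did not pass for either without spermatogonia animal 7 (limma adjusted p = 0.137 and 0.073). From leptotene to pachytene neither passed (−0.77 and −0.91, limma adjusted p = 0.110 and 0.067), while both did without leptotene library 2 (−0.90 and −1.07, limma adjusted p = 0.034 and 0.019). Hspa1b also passed without pachytene library 3 (−0.94, limma adjusted p = 0.045) or with libraries rescaled to the same total (−1.46, limma adjusted p = 0.031). Neither passed with the animal as a block (−1.02 and −1.23, limma adjusted p = 0.370 and 0.307). In the 5S-corrected table the changes were −0.28 and −0.25 and did not pass (limma adjusted p = 0.829 and 0.863). The nascent pachytene levels correspond to an estimated 0.5 to 5.5 reads per gene and library. Summed as 1 row, the pair decreased at that step by −1.26 (limma adjusted p = 0.028).

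Transcripts that dissociation of tissue is known to induce, and transcripts of somatic cells, were high in the same libraries as the pair. The summed level of 17 immediate-early genes in total RNA was 288 to 702 FPKM in spermatogonia, 120 in preleptotene, 47.7 to 118 in leptotene and 13.9 to 36.2 in pachytene. From spermatogonia to leptotene 12 of these 17 fell and none rose, with a median of −2.31, as against −0.07 over all tested genes; Junb, a subunit of AP-1, decreased by −3.61. Of the somatic lists, 9 of 12 Sertoli, 6 of 7 Leydig and 8 of 9 tested peritubular and vascular genes fell at that step, where 9.58% of all genes fell. The immediate-early genes went on to fall from leptotene to pachytene (11 of 17, beside 17.9% of all genes), among them Jund (−3.48), Btg2 (−2.69) and Fos (−2.47). The part of dissociation and of somatic cells in the levels of Hspa1a and Hspa1b was not tested.

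**Figure D2:**
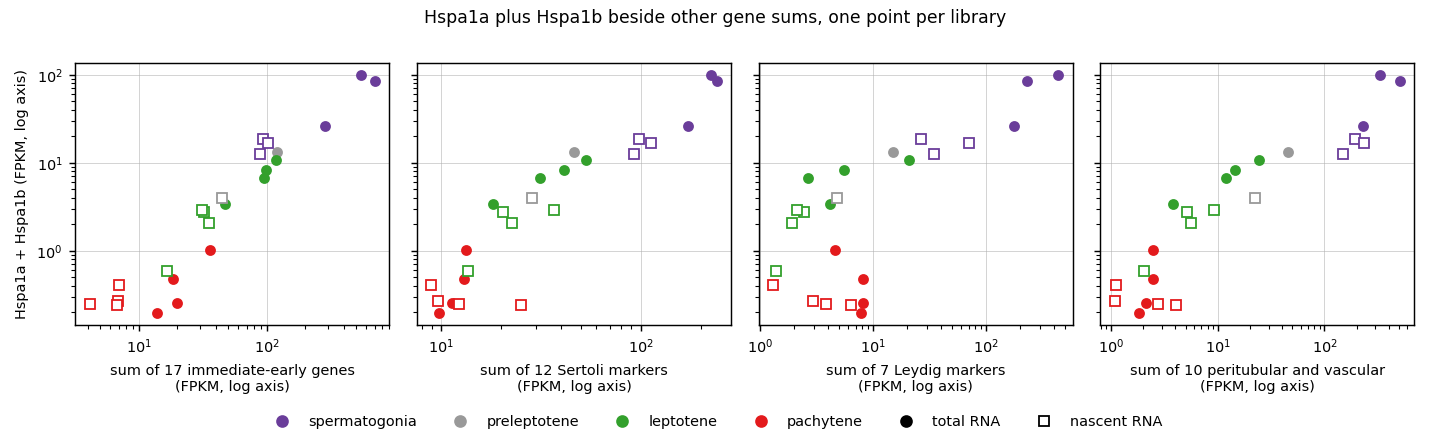
Summed FPKM of Hspa1a and Hspa1b against the summed FPKM of 17 immediate-early, 12 Sertoli, 7 Leydig and 10 peritubular and vascular genes in each library, on log axes, by stage and assay. Within each assay the spermatogonia libraries have the highest sums on both axes, and the pachytene libraries have the lowest Hspa1a and Hspa1b sums.

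Hspa8 encodes HSC70, the constitutive cytosolic HSP70 (chr9:40800984-40810087, plus strand). Its total RNA was at 81.8, 28.8 and 85.6 FPKM in spermatogonia, 44.1 in preleptotene, 54.9, 14.3, 61.5 and 56.5 in leptotene, and 10.3, 23.4, 17.5 and 13.4 in pachytene. Leptotene library 2 lay inside the pachytene range and the other 3 leptotene libraries lay above it. The decrease from leptotene to pachytene was −1.52 ± 0.44 (limma adjusted p = 0.025) and −1.83 without leptotene library 2 (limma adjusted p = 0.00159). It did not pass with the animal as a block (−1.74, limma adjusted p = 0.145), with spike-in scaling (−0.58, limma adjusted p = 0.472), with each library rescaled to the same total (limma adjusted p = 0.057), or without leptotene library 1, 3 or 4, pachytene library 4 or either pachytene animal, with limma adjusted p between 0.051 and 0.279. Against spermatogonia the decrease was −1.99 ± 0.48 (limma adjusted p = 0.00803), which ended with the block (−2.42, limma adjusted p = 0.082), with spike-in scaling (−1.37, limma adjusted p = 0.119) and without spermatogonia library 3, leptotene library 1 or pachytene animal 2 (limma adjusted p between 0.059 and 0.076).

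Nascent Hspa8 separated the stages further. The libraries stood at 28.2, 27.9 and 38.1 FPKM in spermatogonia, 23.1 in preleptotene, 19.0, 7.03, 24.6 and 18.8 in leptotene, and 2.62, 2.46, 4.66 and 3.07 in pachytene. Every pachytene library lay below every other one. The change from leptotene to pachytene was −2.17 ± 0.44 (limma adjusted p = 0.00452) and passed with the block too (−2.77, limma adjusted p = 0.035), but not without leptotene library 1 or pachytene animal 8 (limma adjusted p = 0.062 and 0.057). Without leptotene library 2 it was −2.39 (limma adjusted p = 0.00112). In the 5S-corrected table the change was −0.47 and did not pass (limma adjusted p = 0.779), where leptotene libraries 1 and 4 were at 11.2 and 8.30 and pachytene libraries 1, 2 and 4 at 4.62, 12.5 and 6.98, which overlap. There the decrease from spermatogonia to leptotene passed instead (−2.45, limma adjusted p = 0.046). From spermatogonia to pachytene it was −3.03 ± 0.48 (limma adjusted p = 0.000849). Of the 50-base windows of Hspa8, 38.6% occur in other transcripts, most of them in the pseudogene Gm15459, and the gene hosts the small nucleolar RNAs Snord14c, Snord14d and Snord14e, so its level is less certain than that of Hspa2, which shares no window. The difference between the changes in total and nascent RNA did not pass its own test for Hspa8.

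Hspa5 encodes BiP, the HSP70 of the endoplasmic reticulum (ER), which is induced when unfolded protein accumulates there (chr2:34771970-34777547, plus strand). Total RNA was at 41.7, 29.9 and 46.7 FPKM in spermatogonia, 84.9 in preleptotene, 133, 57.4, 35.99 and 121 in leptotene, and 29.7, 27.5, 24.7 and 22.8 in pachytene. All pachytene libraries lay below all others, and the leptotene libraries ranged the most widely. The decrease from leptotene to pachytene was −1.44 ± 0.50 (limma adjusted p = 0.046), near the threshold. Without leptotene library 2 it was −1.64 (limma adjusted p = 0.0375). It did not pass with the block (−0.51, limma adjusted p = 0.684), with spike-in scaling (−0.48, limma adjusted p = 0.585), with libraries rescaled to the same total (limma adjusted p = 0.162), or in 10 of the fits that left out a library or an animal (limma adjusted p between 0.052 and 0.212). Hspa5 rose from spermatogonia to leptotene in the fit without leptotene library 3 (1.32, limma adjusted p = 0.049) but not with it (0.82, limma adjusted p = 0.395). Nascent Hspa5 ranged over 19.7 to 74.2, 32.2 to 82.1 and 19.3 to 42.8 FPKM in the 3 stages, which overlapped, and no change passed. The nascent preleptotene library, at 149 FPKM, had the highest level of Hspa5 among all libraries of both assays. In total RNA the preleptotene library lay below leptotene libraries 1 and 4. The RefSeq promoter window of Hspa5 held an ER stress element. That element occurred in 0.122% of all promoters and in none of the 6 other members with a promoter window. It lay 65 to 47 bases before the RefSeq start, which is downstream of the GENCODE start given above, so the element is inside the GENCODE span. The site is shown with its flanks, the element in capitals (chr2:34772020-34772048, GRCm38.p6, plus strand).

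Hspa5 site: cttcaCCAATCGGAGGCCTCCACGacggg

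Hsp90aa1 and Hsp90ab1 encode the cytosolic HSP90 alpha and beta forms, and in the mouse the alpha form is needed for male meiosis. Hsp90aa1 (chr12:110690605-110702728, minus strand) was at 42.3, 47.1 and 61.9 FPKM in spermatogonia total RNA, 53.0 in preleptotene, 57.4, 283, 71.9 and 59.3 in leptotene, and 345, 383, 312 and 311 in pachytene. Pachytene libraries lay above every other one, leptotene library 2 being the nearest. The rise from leptotene to pachytene was 2.03 ± 0.40 (limma adjusted p = 0.0055) and 2.41 without leptotene library 2 (limma adjusted p = 0.000161), while it did not pass with the block (2.25, limma adjusted p = 0.055) or without leptotene library 1 (1.65, limma adjusted p = 0.200). Against spermatogonia it was 2.66 ± 0.43 (limma adjusted p = 0.00157) and passed with the block (2.97, limma adjusted p = 0.032) and with each library and animal left out. Nascent Hsp90aa1 was at 54.1 to 68.4 FPKM in spermatogonia, 53.7 to 112 in leptotene and 74.2 to 145 in pachytene, and its changes of 0.69 ± 0.47 and 0.85 ± 0.51 into pachytene from leptotene and from spermatogonia did not pass (limma adjusted p = 0.280 and 0.209). In the 5S-corrected table the change from leptotene to pachytene was 2.85 and passed (limma adjusted p = 0.0416). Of its 50-base windows 47.5% occur in other transcripts, 41.8% in the pseudogene Gm12346.

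Hsp90ab1 (chr17:45567775-45573271, minus strand) was lower in pachytene than in spermatogonia on the deposited FPKM scale. Its total RNA was at 159, 153 and 127 FPKM in spermatogonia, 89.5 in preleptotene, 88.0, 87.0, 129 and 81.0 in leptotene, and 63.5, 96.5, 63.0 and 71.4 in pachytene. Leptotene overlapped both other stages, and the decrease from spermatogonia to pachytene was −0.95 ± 0.38 (limma adjusted p = 0.063). It passed without leptotene library 2 (limma adjusted p = 0.030), leptotene library 3, leptotene animal 1 or pachytene library 2 (limma adjusted p between 0.041 and 0.046 for the latter 3). With spike-in scaling it was −0.30 (limma adjusted p = 0.683). From leptotene to pachytene the total RNA change was −0.41 (limma adjusted p = 0.364), and 0.57 with spike-in scaling (limma adjusted p = 0.379). In nascent RNA the gene was at 100.3, 115 and 108 FPKM in spermatogonia, 21.9 in preleptotene, 23.6, 31.7, 78.9 and 20.2 in leptotene and 11.2, 22.2, 16.2 and 25.6 in pachytene. Spermatogonia did not overlap with any later stage, and the decrease to pachytene was −2.52 ± 0.64 (limma adjusted p = 0.0088). That call ended without spermatogonia library 3 or pachytene animal 6 (limma adjusted p = 0.064 and 0.089) and in the 5S-corrected table (−2.20, limma adjusted p = 0.096), where pachytene library 2, at 113, exceeded spermatogonia library 3, at 102. The decrease from spermatogonia to leptotene was −1.58 ± 0.58 (limma adjusted p = 0.126), and it passed with the block (−2.14, limma adjusted p = 0.046), without leptotene library 3 (−2.14, limma adjusted p = 0.015) and in the 5S-corrected table (−3.95, limma adjusted p = 0.00684). From leptotene to pachytene the nascent change was −0.94 (limma adjusted p = 0.238), and 1.76 in the 5S-corrected table (limma adjusted p = 0.211).

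Hsf2 encodes a heat shock transcription factor known for its part in spermatogenesis rather than in the acute stress response (chr10:57486385-57513135, plus strand). It was at 2.80, 1.15 and 1.33 FPKM in spermatogonia, 2.16 in preleptotene, 2.64, 1.07, 1.39 and 2.82 in leptotene, and 0.56, 0.58, 0.77 and 0.63 in pachytene total RNA. Pachytene libraries were below all others. The decrease from leptotene to pachytene was −0.84 ± 0.29 (limma adjusted p = 0.046), −0.98 without leptotene library 2 (limma adjusted p = 0.016), and did not pass with the block (−0.57, limma adjusted p = 0.473), with spike-in scaling (−0.38, limma adjusted p = 0.383), with libraries rescaled to the same total (limma adjusted p = 0.121) or in 8 of the fits that left out a library or an animal (limma adjusted p between 0.058 and 0.237). Nascent Hsf2 was at 2.66 to 3.01 FPKM in spermatogonia, 0.59 to 3.12 in leptotene and 0.17 to 0.59 in pachytene. It decreased by −1.53 ± 0.41 from spermatogonia to pachytene (limma adjusted p = 0.012), but not beyond the threshold without spermatogonia library 3 or either pachytene animal (limma adjusted p between 0.058 and 0.095). From leptotene to pachytene it decreased by −1.04 ± 0.38 (limma adjusted p = 0.057), which passed without leptotene library 2, leptotene animal 5, or pachytene library 3 or 4 (limma adjusted p between 0.019 and 0.044) and with libraries rescaled to the same total (−1.47, limma adjusted p = 0.041). The decrease from spermatogonia to leptotene, −0.49, passed in the 5S-corrected table (−1.73, limma adjusted p = 0.037).

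**Figure D3:**
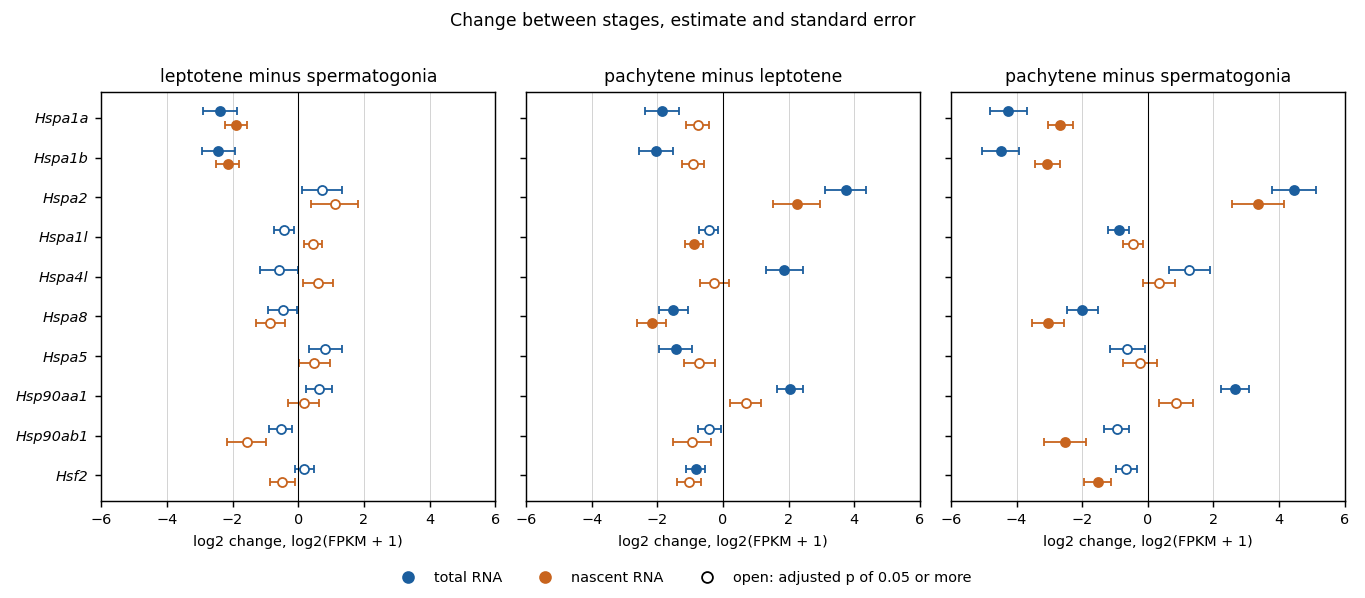
Change of each of the 10 genes on the log2(FPKM + 1) scale for the 3 stage comparisons in total and nascent RNA, with SE as bars and filled points for limma adjusted p under 0.05. Hspa2 has the largest rise into pachytene, at 3.73 from leptotene in total RNA, and Hspa1a and Hspa1b are the filled points below 0 from spermatogonia to leptotene.

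Set against all genes, the counts of members were as follows. From spermatogonia to leptotene in total RNA 2 of the 10 fell and 0 rose, where 9.87% of 19202 genes passed the test, 9.58% lower and 0.286% higher. At an unadjusted p under 0.05 the counts were also 2 and 0. From leptotene to pachytene 3 rose and 5 fell, where 40.3% of all genes passed, 22.4% higher and 17.9% lower. From spermatogonia to pachytene 2 rose and 4 fell, where 52.9% passed, 23.1% higher and 29.8% lower. The 6 of 10 against spermatogonia were near the background of that comparison, so nothing is read from that count. Without the level filter, which adds genes to the adjustment, the calls of Hspa1a and Hspa1b at both steps and of Hspa4l, Hspa5, Hspa8 and Hsf2 from leptotene to pachytene ended in total RNA, as did that of Hspa1l against spermatogonia and those of nascent Hspa2 and Hspa1l from leptotene to pachytene. With single libraries and an estimated correlation within animals, the calls of total Hspa4l and nascent Hspa2 from leptotene to pachytene ended. In nascent RNA 2 fell and 0 rose from spermatogonia to leptotene (10.6% of 16375 genes passed, 9.8% lower and 0.788% higher; at an unadjusted p under 0.05, 3 and 0 members). The next step, to pachytene, had 1 higher and 2 lower (31.5% of genes, 15.7% higher and 15.8% lower), where 1 of the 2 lower is Hspa1l, whose call was partly set by the filter. Against spermatogonia 1 rose and 5 fell (43.5%, 15.6% higher and 27.9% lower). With the animal as a block, the step from leptotene to pachytene in total RNA kept 4 calls, 2 higher and 2 lower (Hspa2, Hspa4l, Hspa1a and Hspa1b). The 3 comparisons share stages and so share libraries.

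Leaving leptotene library 2 out raised the shares of all genes that passed in each comparison and changed the counts of members in 2 of 6. In total RNA from spermatogonia to leptotene the members' counts stayed at 2 lower and 0 higher (12.1% of genes passed, 11.3% lower and 0.796% higher). At the next step, to pachytene, they stayed at 3 higher and 5 lower (53.5% of genes, 28.8% higher and 24.8% lower). From spermatogonia to pachytene, where the library enters only through the spread, they were 2 higher and 5 lower (57.3%, 26% higher and 31.3% lower). In nascent RNA the first step kept 2 lower and 0 higher (11.1%, 10.2% lower and 0.914% higher). Between leptotene and pachytene 1 member was higher and 4 were lower (39.9%, 17.6% higher and 22.3% lower), and from spermatogonia to pachytene 1 was higher and 5 were lower (44.8%, 15.9% higher and 28.9% lower).

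FPKM are relative to all other RNA of a library, so the choice of scale sets where 0 lies. Scaled by the summed spike-in rows, the median change of all genes in total RNA from leptotene to pachytene was 0.62 in place of −0.07. On that scale 7718 genes rose and 2023 fell, against 4297 and 3445 on the deposited scale. There Hspa2, Hspa4l, Hsp90aa1, Hspa1a and Hspa1b passed, Hspa8, Hspa5 and Hsf2 no longer did, and Hsp90ab1 had a change of 0.57. Spike-in rows took 5.01% to 76.5% of the FPKM of nascent libraries, and scaling by them left 0 nascent genes past the test in any comparison (327, 431 and 779 at an unadjusted p under 0.05). The table corrected with 5S ribosomal RNA, which holds 9 of the nascent libraries, moved the median of all genes to −1.08 from spermatogonia to leptotene and to 0.87 from leptotene to pachytene. On it 100 genes rose and 4913 fell at the first step, against 129 and 1605, and 5624 rose and 366 fell at the second, against 2572 and 2589. There nascent Hsp90ab1 and Hspa5 had changes of 1.76 and 1.52 from leptotene to pachytene, opposite in sign to those on the deposited FPKM scale, and nascent Hspa2 changed by −0.58 from spermatogonia to leptotene.

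The make-up of the HSP70 pool changed with these levels. Of the summed FPKM of 6 HSP70 genes (Hspa1a, Hspa1b, Hspa1l, Hspa2, Hspa5 and Hspa8), Hspa2 made up 19.8%, 21.1% and 29.9% in spermatogonia total RNA and 30.7% in preleptotene. It made up 22.7%, 93.1%, 29.8% and 27.8% in leptotene and 96.7%, 96.3%, 96.4% and 97.3% in pachytene. Leptotene library 2 was close to pachytene and the other leptotene libraries overlapped with spermatogonia. The summed level itself was 184 to 281 FPKM in spermatogonia and 1201 to 1382 FPKM in pachytene. In nascent RNA the share of Hspa2 was 12.4% to 21.1% in spermatogonia, 13.9% to 82.4% in leptotene, and 93.2%, 92.8%, 41.6% and 91.5% in pachytene, with library 3 the low one.

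**Figure D4:**
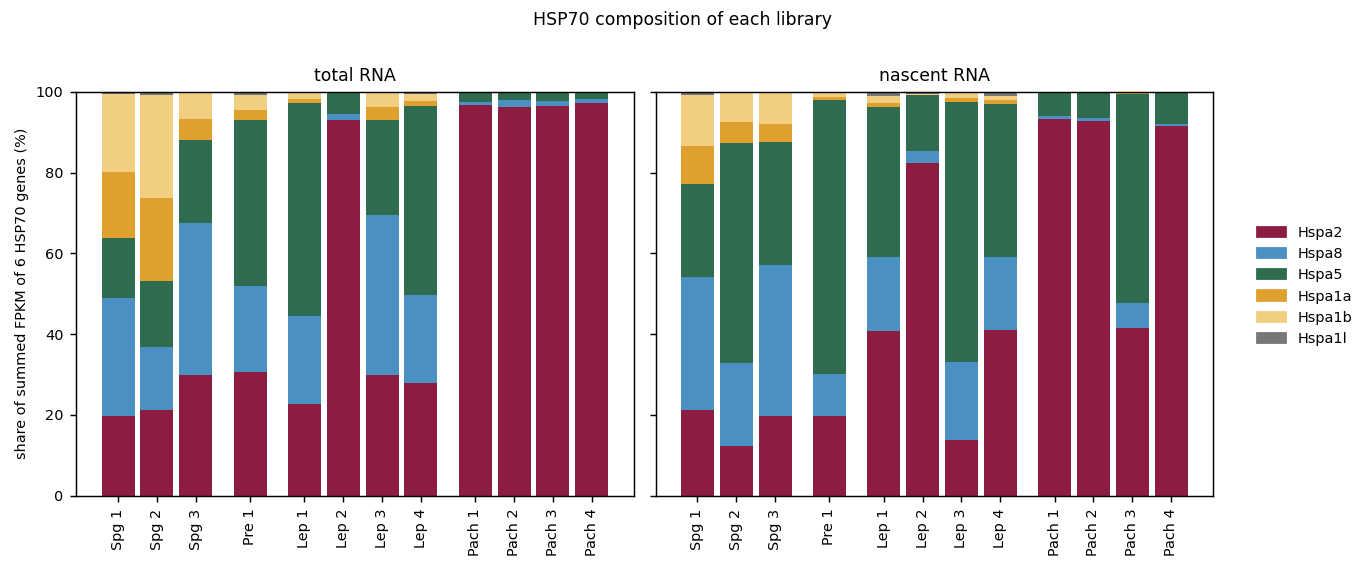
Share in percent of each of 6 HSP70 genes in their summed FPKM, as stacked bars per library, for total RNA and nascent RNA. Hspa2 fills over 96% of each pachytene total RNA bar and 41.6% of the nascent bar of pachytene library 3.

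The ratio of Hspa2 to Hspa8, the testis form over the constitutive cytosolic form in FPKM, was 0.68, 1.35 and 0.79 in spermatogonia and 1.04, 70.8, 0.75 and 1.28 in leptotene total RNA. In pachytene it was 116, 57.0, 66.0 and 99.0. The mean log2 ratio of pachytene animals exceeded that of leptotene animals by 5.25 (two-sided exact permutation p = 0.2 over 2 and 3 animals) and that of spermatogonia animals by 6.45 (two-sided exact permutation p = 0.333 over 2 and 2 animals), and these are the smallest p that designs of those sizes allow. For nascent RNA the corresponding differences were 4.41 and 6.38, with the same p values.

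Total and nascent RNA were next set against each other, to see whether a change in total RNA exceeded that in new RNA. By the labels the assays came from different animals, and they were treated as independent here. They were prepared with and without ribosomal RNA depletion, and the difference between them in 1 stage measures no decay rate. Hspa2 was higher in total than in nascent RNA by 1.53, 0.54, 1.15 and 2.64 on the log2(FPKM + 1) scale in spermatogonia, preleptotene, leptotene and pachytene. For Hspa4l these differences were −0.75, −2.84, −1.94 and 0.19, and for Hsp90aa1 −0.21, −0.50, 0.25 and 1.59. In a model of both assays no member's change differed between them after adjustment over 15914 genes, of which 0% passed from spermatogonia to leptotene, 0.0251% from leptotene to pachytene (0.00628% higher and 0.0189% lower) and 0.0126% from spermatogonia to pachytene (all lower). At an unadjusted p under 0.05 the numbers of members were 0, 2 and 2. The 2 from leptotene to pachytene were Hspa4l, whose total RNA increase exceeded the nascent change by 2.12 ± 0.75 (limma adjusted p = 0.643), and Hsp90aa1, with 1.34 ± 0.61 (limma adjusted p = 0.728). For Hspa2 the excess was 1.49 ± 1.06 (limma adjusted p = 0.854).

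Partners of HSP70 and HSP90 were examined from lists of known genes, with the same limma test over all genes. In total RNA from leptotene to pachytene, 11 of 39 tested HSP40 genes rose and 1 fell, with a median change of 0.39, where 22.4% of all genes rose and 17.9% fell, and without leptotene library 2 the counts were 14 and 3. With spike-in scaling 20 rose and 0 fell, where 7718 of 19388 genes rose and 2023 fell. The median was then 1.33, beside 0.62 over all genes. Dnajb1, the major stress-responsive HSP40, was at 15.3 to 24.5 FPKM in spermatogonia and 103 to 124 FPKM in pachytene, and rose by 2.19 ± 0.45 (limma adjusted p = 0.00677), in the direction opposite to Hspa1a and Hspa1b. Dnajb3, a spermatid-associated HSP40, rose by 3.90, Dnajb13, a sperm axoneme protein, by 2.77, and Dnajc15, a mitochondrial one, by 2.34. In nascent RNA 3 of 36 rose and 1 fell at this step, beside 15.7% and 15.8% of all genes. Dnajb3 (3.17) and Dnajc28 (2.06) rose and Dnajc9, a histone co-chaperone, fell by 2.15, while Dnajb1 changed by 1.28 (limma adjusted p = 0.076).

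Among 31 tested cofactors, 10 rose and 2 fell in total RNA from leptotene to pachytene (median 0.69; 13 and 5 without leptotene library 2), beside 22.4% and 17.9% of all genes. Bag6, whose product stabilises HSPA2 in the mouse testis, was at 5.58 to 49.96 FPKM in leptotene, the highest being library 2, and at 35.4 to 46.3 FPKM in pachytene. It rose by 1.996 ± 0.48 (limma adjusted p = 0.0121), and its nascent RNA changed by 0.80 (limma adjusted p = 0.192). Bag5, an exchange factor for HSP70, rose by 3.26 and was at 95.2 to 131 FPKM in pachytene. Ptges3l, a relative of the HSP90 cofactor p23, rose by 3.13, and Fkbp6, an immunophilin of meiotic cells, fell by 2.27. In nascent RNA 5 rose and 4 fell, beside 15.7% and 15.8% of all genes. Bag5 changed by 2.72, Ptges3l by 2.21 and Fkbp5, an HSP90 partner, by −2.17. From spermatogonia to pachytene in total RNA, Sil1, the exchange factor of BiP, rose by 2.43.

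Other HSP70 and HSP90 genes work in the cytosol, the ER and the mitochondria. Of 8 other HSP70 and HSP110 genes 2 rose from leptotene to pachytene in total RNA, Hspa12a (1.66) and the ER form Hyou1 (1.42), where 22.4% of all genes rose. Hsph1 changed by 0.11 (limma adjusted p = 0.819) and mitochondrial Hspa9 by 1.10 (limma adjusted p = 0.0526), or 1.29 without leptotene library 2, where it passed (limma adjusted p = 0.0036). Of the other HSP90 genes, mitochondrial Trap1 rose by 1.14 and the ER form Hsp90b1 changed by 0.90 (limma adjusted p = 0.109). Hspa12a had fallen from spermatogonia to leptotene, by 1.62 in total and 2.17 in nascent RNA.

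Chaperonins fold proteins inside a closed chamber. Of 17 genes 6 rose and 3 fell in total RNA from leptotene to pachytene (median 0.69), beside 22.4% and 17.9% of all genes. The 3 that fell were Hspd1 and Hspe1, which form the mitochondrial HSP60 and HSP10 chamber, and Vbp1, a prefoldin subunit, by 3.49, 2.59 and 3.19. Hspd1 was at 5.46 to 30.7 FPKM in leptotene and 0.37 to 1.16 FPKM in pachytene. Cct6b, a testis subunit of the cytosolic chamber, rose by 3.05 from spermatogonia to pachytene in total RNA and by 2.15 from leptotene to pachytene in nascent RNA.

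Small heat shock proteins moved in both directions. From spermatogonia to leptotene Hspb1 (−2.37), Hspb8 (−1.91) and Cryab (−1.14) fell in total RNA, as they did in nascent RNA (−2.05, −0.98 and −0.91), together with the HSP70 exchange factor Bag2 (−1.48). None of 39 HSP40 genes passed at this step in total RNA, where 9.87% of all genes did. From leptotene to pachytene 3 of 7 rose in total RNA, beside 22.4% of all genes. These were the testis gene Hspb9, by 4.59 to 320 to 499 FPKM, Hspb6 by 2.71 and Hspb3 by 1.03. The low pachytene levels of Hspa1a, Hspa1b and Hspb1 and the high ones of Dnajb1 and Hspb9 were thus found in the same libraries.

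**Figure D5:**
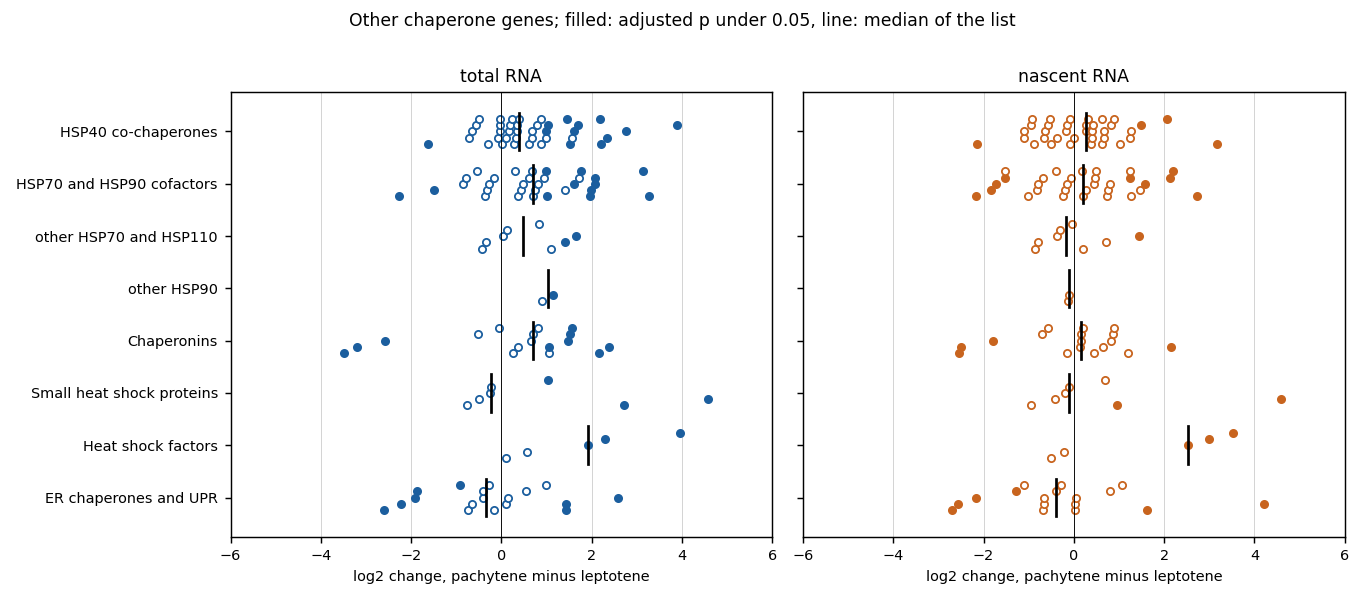
Change from leptotene to pachytene on the log2(FPKM + 1) scale for each gene of 8 chaperone and cofactor lists, with filled points for limma adjusted p under 0.05 and a line at the median of each list. HSP40 genes and cofactors have medians of 0.39 and 0.69, and Hspd1, Vbp1 and Hspe1 are the low points of the chaperonins.

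Of the other heat shock factor genes, Hsf5, a testis factor needed for meiosis in the mouse, was at 3.72 to 10.7 FPKM in spermatogonia, 4.42 to 147 in leptotene and 177 to 198 in pachytene. It rose by 3.97 ± 0.59 from leptotene to pachytene in total RNA (limma adjusted p = 0.00318) and by 3.52 in nascent RNA. Hsf1, the main factor of the stress response, changed by 0.11 (limma adjusted p = 0.852). Hsbp1, whose product binds HSF1, rose by 1.93 and its relative Hsbp1l1 by 2.30; the call of Hsbp1 ended without leptotene library 2 (2.74, limma adjusted p = 0.0514).

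Genes of the ER response did not share one direction. In total RNA 3 of 18 rose and 5 fell from leptotene to pachytene, with a median of −0.34 on the deposited scale and 0.61 with spike-in scaling, where 5 rose and 2 fell. Over all genes 22.4% rose and 17.9% fell on the deposited scale, and 7718 of 19388 rose and 2023 fell with spike-in scaling. Clgn, a testis ER chaperone, rose by 2.59, the stress sensor Ern1 fell by 2.61 and the disulfide isomerase Pdia4 by 2.23. Of 9 meiotic genes whose products are linked to HSPA2, 1 rose and 2 fell, or 1 and 0 with spike-in scaling. Cyclin B1 (Ccnb1) fell by 1.92 to 0.88 to 2.27 FPKM in pachytene, Cdk1 changed by 0.20 (limma adjusted p = 0.666), the synaptonemal complex gene Sycp1 fell by 1.65 and Syce1 rose by 1.32. In nascent RNA on the deposited scale 0 of 8 rose and 5 fell, beside 15.7% and 15.8% of all genes. Among those that fell were Sycp1 (−2.68), Syce2 (−2.36) and Tex12 (−2.35). In the 5S-corrected table the median of all genes at this step was 0.87 in place of −0.27, so this count depends on the scale.

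The genes whose log2(FPKM + 1) over the 12 total RNA libraries was most like that of Hspa2, among 5182 genes with a mean of at least 5 FPKM, were Lrriq3, Wdr93, Morn4, Glyctk and Mir468 (Pearson correlation 0.998 for each). Those most like Hspa1a were Hspa1b (0.998), Socs3 (0.994), Nr4a1 (0.992), Enc1 (0.991) and Fosb (0.990), of which Socs3, Nr4a1 and Fosb are on the immediate-early list. Hspa1b holds 58.8% of the 50-base windows of Hspa1a, so the split of reads between the pair is uncertain and their correlation is not that of separate measurements. The libraries share animals and fall into stages, so these values rank genes and are not tested.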

How the data were processed

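The FPKM in the deposited total and nascent tables are the authors' own values: STAR 2.5.2a, StringTie and the build mm10 are named, per the submitters' processing notes, and the version of StringTie, the gene annotation and any use of strand are not given in the sources used here. Total RNA was depleted of ribosomal RNA and the EU-captured RNA was not, and both received ERCC spike-in RNA after extraction, per the labels. Another table holds nascent values the authors corrected by 5S ribosomal RNA (unit: signal); as deposited, each of its 9 libraries equals the FPKM times 1 constant, from 0.441 to 5.08, and how the constants were made is not stated. All 52323 rows were read and the 92 spike-in rows were kept out of tests.

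Values were put on the log2(FPKM + 1) scale and averaged within each animal and stage. Genes reaching 1 FPKM in 2 or more libraries of an assay were tested between stages with limma 3.58.1 in R 4.3.3 (trended variance, 4 residual degrees of freedom), with Benjamini-Hochberg adjustment over all tested genes and a threshold of 0.05. Differences between assays were tested as an interaction. Log changes understate those of low genes. Tables of FPKM give no counts; low values imply about 7110000 to 15700000 reads for total and 5100000 to 10200000 for nascent libraries, an estimate, since 40.5% to 50.7% of low values lay within 0.05 of a whole read.

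Samples of 1 animal at several stages are paired by the labels' individual. Deviations of such pairs from their stage means correlated at 0.015 to 0.084 in total and −0.16 to 0.054 in nascent RNA. Spermatogonia and pachytene have 2 animals each, whose deviations mirror each other, so these values cannot show whether pairing matters. Results are given with the animal as a block where the call changes. Where several libraries came from 1 animal at 1 stage they share that animal, and whether sorted cells or RNA were split is not stated.

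All 10 genes are named in each comparison. From each partner list up to 3 genes past the threshold with the largest change are named per comparison, plus Hspa9, Hsp90b1, Hsf1, Hsf5, Bag6, Dnajb1, Hsph1, Cdk1 and Ccnb1, from which a selection is given. The genes and lists were chosen with earlier results of these data known. Alternatives were another pseudocount (0.1), no filter, single libraries with duplicateCorrelation, the animal as a block, rescaling to a common total, spike-in scaling, the 5S table, and leaving out each library and each animal. Coordinates are from GENCODE M21 on mm10, and shared sequence was counted as 50-base windows of transcripts.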

Additional observations from a re-analysis of the deposited data

Results flagged for a closer look

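A library was picked out where its gap to the nearest other library of its group, divided by the group's range, exceeded Dixon's critical value of 0.829 for 4 libraries. Groups of 4 were tested 39 times, and chance alone picks out about 5% of groups of independent values with a normal spread. The 4 libraries of a group came from 2 or 3 animals and were taken as FPKM, so that rate need not hold here.

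Leptotene library 2 was picked out for 4 genes in total RNA. Its Hspa2 was at 1010.39 FPKM, its Hsp90aa1 at 283 FPKM and its Hspa4l at 9.10 FPKM, each the highest of the leptotene libraries, and its Hspa8 was the lowest at 14.3 FPKM. In nascent RNA its Hspa2 was the highest at 193 FPKM. The summed level of 11 pachytene markers in total RNA was 792 FPKM in this library, 43.4 FPKM in the lowest leptotene library and 848 to 1306 FPKM in pachytene. Their part in the levels of the 10 genes was not tested.

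Leptotene library 3 was picked out for Hsp90ab1 in total RNA (129 FPKM, highest) and for Hspa5 (82.1 FPKM, highest) and Hspa4l (9.34 FPKM, lowest) in nascent RNA. Pachytene library 4 was picked out for Hspa4l in total RNA (52.9 FPKM, highest), and its nascent Hspa4l was the highest too, at 43.2 FPKM. By the labels this library came from animal 4 in total RNA and animal 8 in nascent RNA, and whether the 2 share cells was not tested. Pachytene library 3 was not picked out by this measure for nascent Hspa2, where it stood at 32.1 FPKM beside 306 to 496 FPKM in the other 3.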

How the results depend on the processing

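The total RNA rise of Hspa2 and Hsp90aa1 and fall of Hspa1a and Hspa1b from spermatogonia to pachytene kept direction and call under every alternative run. Gene counts depended on the animal block: 4464 in place of 7742 genes and 4 in place of 8 members from leptotene to pachytene and 6139 in place of 10151 genes from spermatogonia to pachytene in total RNA, where Hspa5 was at 0.81. In nascent RNA the replicate block gave 3326 genes (1734 without) from spermatogonia to leptotene and 3128 (5161) from leptotene to pachytene, with Hspa4l at 0.41, and Hspa1l at 0.22 from spermatogonia to pachytene. The block leaves 1 residual degree of freedom, changed no member's call other than those given with its value, and the cause was not tested. Of all values of single members under the alternatives, 2167 kept direction and call, 124 lost and 36 gained the call, and 49 changed sign. Levels under about 1 FPKM rest on few reads, and the part of read number in the calls was not tested.

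Single libraries with duplicateCorrelation gave 3396 total (1895) and 2892 nascent genes from spermatogonia to leptotene, and 4, 13 and 124 genes for total over nascent at the 3 steps. Without a filter the members called were 0 (2) and 2 (8) in total RNA from spermatogonia to leptotene and from leptotene to pachytene and 1 (3) in nascent RNA from leptotene to pachytene, and genes for total over nascent were 121, 38 and 306, against 0, 4 and 2. A pseudocount of 0.1 called 6 members in nascent RNA from leptotene to pachytene and gave 0.072 and 0.13 for Hspa1a and Hspa1b in total over nascent from spermatogonia to leptotene. No share of all genes is given for the fits without a filter or with this pseudocount, so their member counts are not read. Rescaling to a common total called 5 members from leptotene to pachytene in each assay, 1 gene for total over nascent from spermatogonia to pachytene, and gave nascent Hspa5 0.091 at that step. From leptotene to pachytene, rescaling called 6225 genes higher and 3428 lower of 25128 in total RNA. In nascent RNA it called 3617 higher and 2980 lower of 22496. Without leptotene library 2 in both assays, an alternative chosen after seeing the data, total over nascent called 229 genes from leptotene to pachytene and 110 from spermatogonia to pachytene.

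Spike-in scaling called 5 members in total RNA from leptotene to pachytene, with Hsp90ab1 at 0.57, where 7718 of 19388 genes rose and 2023 fell. It gave Hspa5 0.015 from spermatogonia to pachytene. In nascent RNA it called 0 genes and 0 members at each step, with Hsp90aa1 at −0.95 from leptotene to pachytene and Hspa4l at −0.83 and Hsp90aa1 at −0.66 from spermatogonia to pachytene. For total over nascent it gave Hspa5 −0.11 and Hspa8 −0.13 at the first step, 0 genes at the later steps, and Hspa5 1.79 and 1.67 there. The 5S table called 5013 of 18206 genes and 5 members from spermatogonia to leptotene. Its values there were −0.26 for Hspa1l, −0.58 for Hspa2, −0.85 for Hspa4l, −1.55 for Hspa5 and −1.41 for Hsp90aa1. From leptotene to pachytene it gave Hspa4l 1.15, Hspa5 1.52, Hsp90ab1 1.76 and Hsf2 0.023. The uncorrected FPKM of those 9 libraries called 5865 genes and 4 members, then 8324 genes and 5 members at these steps. There 16015 genes were tested, and Hspa4l was at −0.11 from spermatogonia to pachytene.

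Leaving out single libraries or animals gave in total RNA 171 to 2978 genes and 0 to 3 members from spermatogonia to leptotene (Hsf2 −0.024 to 0.39), 9 to 10224 genes and 0 to 8 members from leptotene to pachytene, and 5944 to 10948 genes from spermatogonia to pachytene. In nascent RNA the ranges were 184 to 4167 genes and 0 to 3 members (Hsp90aa1 −0.081 to 0.34), 1324 to 6513 genes and 0 to 5 members (Hspa4l −1.11 to 0.58), and 4261 to 7740 genes and 3 to 6 members (Hspa5 −0.70 to 0.23, Hspa4l −0.51 to 1.18). For total over nascent they were 0 to 1, 1 to 172 and 0 to 37 genes. Members whose sign changed there were Hspa2 (−1.07 to 0.30), Hspa5 (−0.13 to 0.83), Hspa1a (−1.39 to 0.40), Hspa1b (−1.15 to 0.58) and Hspa8 (−0.019 to 0.78) from spermatogonia to leptotene, Hsp90ab1 (−0.043 to 0.91) and Hsf2 (−0.083 to 0.43) from leptotene to pachytene, and Hspa5 (−0.86 to 0.077) from spermatogonia to pachytene. The cause of these changes was not tested.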
